A study of Elaeis oleifera with 12 samples.

Results

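LOC105040850 is the locus that the annotation of the deposited tables describes as bark storage protein A. It was taken by its identifier and is 1 of 29040 loci in the series. It had been picked out for its low level in the ripe NSd palm relative to the ripe Sd palm, with its PR values also known, so the palm differences of this locus are given as a description without a test. The description "bark storage protein" occurs at 2 loci, and the other, LOC105059258, was matched by that name and not by its values.

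The study asked which genes differ in the abscission zone (AZ), the cell layers at the base of the fruit where it detaches, between an American oil palm (*Elaeis oleifera*) that does not shed its fruit (NSd) and a palm that does (Sd). The groups sequenced were ripe NSd, pre-ripe (PR) NSd, ripe Sd and PR Sd, with 3 libraries each and 12 in all. The 2 palms came from the same progeny, neither had been treated, and each sample pooled about 50 AZ pieces (about 3 g) of fruit bases, a dissection that holds other tissues beside the AZ. The ripe bunch was the lowest in the whorl and bore loose orange fruit, and the PR bunch sat just above it with less orange, firmer fruit. The libraries of a group were 3 samplings from 1 bunch of 1 palm, so p-values cover only how far such samplings scatter, and palm, bunch and phenotype cannot be told apart.

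Bark storage proteins were first described in poplar, where they build up in the vacuoles of bark and wood parenchyma in autumn and are broken down in spring to supply nitrogen for new growth. Their sequences are related to nucleoside phosphorylases and nucleosidases, and poplar relatives include wound-inducible proteins. A role for this family in the fruit AZ of oil palm is not part of that background.

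Between 19090375 and 34004517 reads were aligned per library. Libraries of a group resembled each other closely (Pearson r of 0.965 to 0.991 across loci on the log2 scale), and the 3 PR NSd libraries stood apart from the other groups (r of 0.896 to 0.941, against 0.940 to 0.980 between the other groups). The PR NSd libraries also held the lowest summed level of photosynthesis genes (540 to 584 RPKM over 46 loci, against 2604 to 4601 RPKM over the other groups). Reads on 109 rRNA loci made up 12.1% to 22.4% of the PR NSd libraries. In ripe NSd they made up 1.21%, 6.77% and 13.4%, and in the 6 Sd libraries 2.70% to 6.85%. Levels are in RPKM, which scales the reads of a locus to its transcript length and to the aligned reads of the library.

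In the NSd palm LOC105040850 was at or under 4.59 RPKM in every library, and in the Sd palm it was a moderately abundant transcript. It measured 4.59, 1.33 and 0.124 RPKM in the 3 ripe NSd libraries, against 49.3, 52.9 and 45.4 RPKM in the 3 ripe Sd libraries. Every ripe NSd library lay below every ripe Sd library. The share of all loci with that separation at the ripe stage alone was not counted. In bulk tissue, fewer cells that express the gene and less transcript per cell cannot be told apart. At the PR stage the locus measured 0.0710, 0.486 and 0.378 RPKM in NSd, against 34.7, 32.1 and 32.7 RPKM in Sd. The palms were again fully separated, as at 51.5% of the loci tested with NSd lower in PR fruit, and each NSd value was under 1 RPKM.

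**Figure D1:**
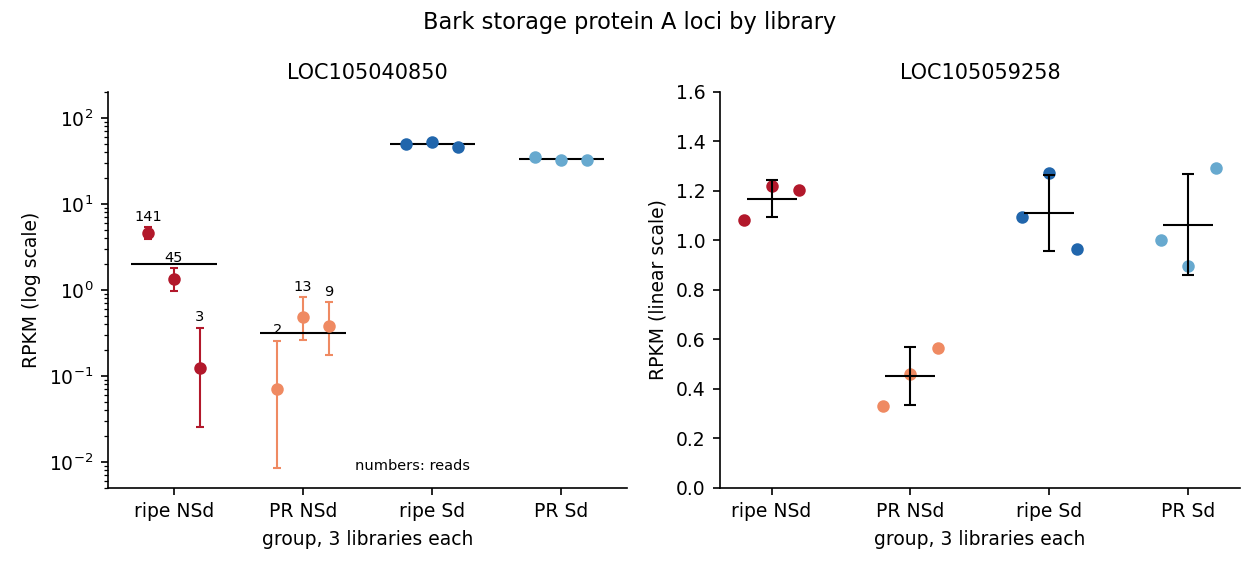
RPKM of the bark storage protein A loci in the 12 libraries (points, 3 per group): LOC105040850 on a log axis with exact Poisson 95% intervals, its group means as lines and its read numbers printed for NSd, and LOC105059258 on a linear axis with mean and SD. LOC105040850 lay between 32.1 and 52.9 RPKM in all 6 Sd libraries and at or under 4.59 RPKM in all 6 NSd libraries, whereas LOC105059258 was at or under 0.566 RPKM in the 3 PR NSd libraries and at or above 0.895 RPKM in the others.

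The group means were 2.01 ± 2.31 RPKM in ripe NSd and 49.2 ± 3.74 RPKM in ripe Sd (SD, n = 3 each). The ripe Sd mean was 24.4 times that of ripe NSd, and the fitted difference on the log2(RPKM + 1) scale was -4.36, the second lowest among the 20495 loci tested. In PR fruit the means were 0.312 ± 0.215 RPKM in NSd and 33.2 ± 1.35 RPKM in Sd (SD, n = 3 each), a ratio of 106 for Sd over NSd. The fitted PR difference was -4.72, the ninth lowest. Among all loci tested, 1.63% were called lower and 0.815% higher in ripe NSd, and 9.53% were called lower and 3.36% higher in PR NSd. Calls were made at a limma adjusted p under 0.01 together with a change of more than 1 log2 unit in either direction. Since the locus was chosen from these differences, nothing is read from its place among those loci.

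The length that turns all 12 values of LOC105040850 into whole read numbers is 1246 bases, so the reads behind each value could be counted. In ripe NSd 141, 45 and 3 reads were recovered, and in PR NSd 2, 13 and 9 reads. In ripe Sd 1482, 1296 and 1266 reads were recovered, and in PR Sd 1470, 850 and 892 reads. The NSd values therefore rested on 189 reads at the ripe stage and 24 at the PR stage, against 4044 and 3212 reads in Sd. A count of 0 would have allowed up to 0.0708 to 0.126 RPKM for this locus, depending on the library. The PR NSd library with 2 reads lay under that limit and the ripe NSd library with 3 reads lay at it. Both libraries held reads of the locus, but too few to fix its level closely. The exact Poisson interval was 0.0086 to 0.256 RPKM for the PR NSd library with 2 reads. It was 0.0257 to 0.364 RPKM for the ripe NSd library with 3 reads. The intervals and limits cover counting error only.

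The 3 ripe NSd libraries differed beyond counting error. Their exact Poisson 95% intervals were 3.86 to 5.41 RPKM, 0.973 to 1.78 RPKM and 0.0257 to 0.364 RPKM, and no pair of them overlapped. The highest value was 36.9 times the lowest, with a coefficient of variation of 115%. On the log2(RPKM + 1) scale the SD in ripe NSd was 1.16, a spread matched or exceeded by 0.732% of the loci tested, whose median SD in that group was 0.20. In Sd the locus was steady. Its coefficient of variation was 7.61% in ripe Sd and 4.07% in PR Sd. On the log2(RPKM + 1) scale its SD was 0.108 in ripe Sd and 0.0566 in PR Sd. Of the loci tested, 69.2% and 86.1% had at least that SD in those groups. The loci tested were not matched to it in level.

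The order of LOC105040850 among the ripe NSd libraries was the reverse of the order of rRNA reads. The library with 141 reads of the locus had 1.21% rRNA, the library with 45 reads had 6.77%, and the library with 3 reads had 13.4%. The order was also reversed in PR NSd, with 22.4%, 12.1% and 12.5% rRNA beside 0.0710, 0.486 and 0.378 RPKM in replicates 1, 2 and 3. It was not reversed in ripe Sd, with 6.85%, 3.73% and 2.70% rRNA beside 49.3, 52.9 and 45.4 RPKM. Nor was it in PR Sd, with 5.41%, 4.68% and 5.49% rRNA beside 34.7, 32.1 and 32.7 RPKM. The part of rRNA content in the spread of the NSd libraries was not tested. Leaving the rRNA loci out of the totals moved the fitted ripe palm difference to -4.39, and leaving out ripe NSd replicate 1, the library with 141 reads, moved it to -4.95. Without ripe NSd replicate 3 it was -3.79.

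Across both stages, the highest NSd library (4.59 RPKM) and the lowest Sd library (32.1 RPKM) of LOC105040850 were 7.00-fold apart. Without ripe NSd replicate 1 the gap was 24.1-fold. All 6 NSd libraries lay under all 6 Sd libraries at 6.25% of the loci tested. The limits of the next count are the values of LOC105040850 itself. It meets them by construction, so nothing is read from how few loci did. At 2 loci, LOC105040850 included, every NSd library was at or under 4.59 RPKM and every Sd library at or above 32.1 RPKM. The reverse was seen at 0 loci. The other of the 2 loci was LOC105054935, an uncharacterized locus at 0 to 1.51 RPKM in NSd and 47.1 to 253.6 RPKM in Sd. It was singled out after its values were seen, as were the loci that follow.

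A count by the width of the gap took as its limit the gap of LOC105040850 itself, so nothing is read from that count either. By it, 3 loci with at least 5 RPKM in every Sd library were separated by 7.00-fold or more. They were LOC105040850, LOC105054935 and LOC105055575, described as the alpha subunit of the RuBisCO large subunit-binding protein, a chloroplast chaperonin, at 0.168 to 0.512 RPKM in NSd and 6.42 to 9.44 RPKM in Sd. In the opposite direction there were 2 loci, both uncharacterized, LOC105036138 and LOC105044730. The 3 loci lower in NSd differed in how even the low level was among ripe NSd libraries. As a share of its own mean over the 6 Sd libraries, LOC105040850 reached 11.1%, 3.24% and 0.302% in ripe NSd replicates 1, 2 and 3. LOC105055575 stayed at 4.95%, 5.58% and 5.41% in the same libraries. LOC105054935 was at 0.272%, 0.0620% and 0%.

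**Figure D2:**
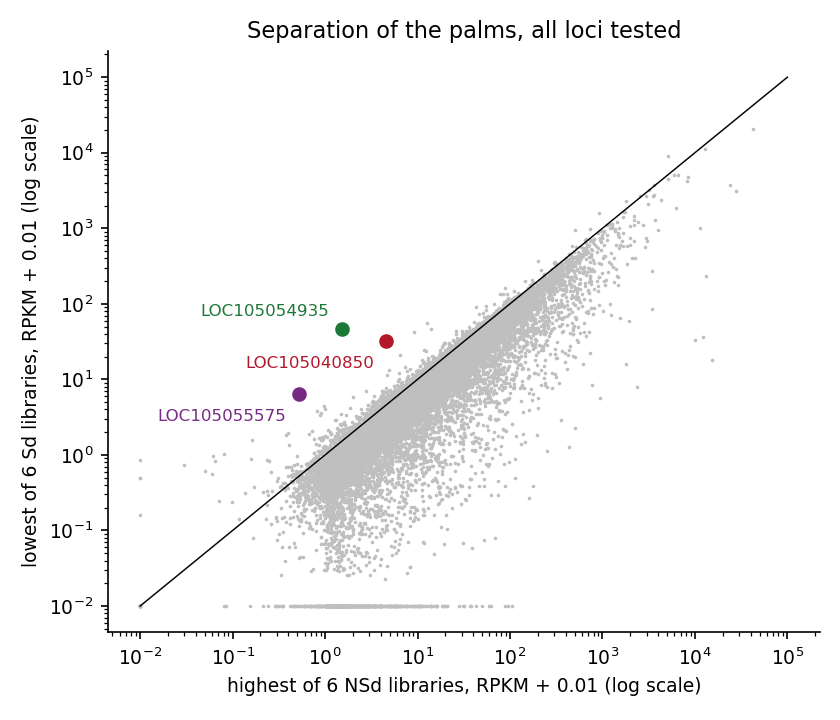
For each of the 20495 loci tested, the lowest of the 6 Sd libraries against the highest of the 6 NSd libraries (RPKM + 0.01, both axes logarithmic), with the line of equality. LOC105040850 (4.59 RPKM in the highest NSd library, 32.1 RPKM in the lowest Sd library), LOC105054935 and LOC105055575 lie well above the line.

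The stage comparison was not used to choose the locus but reuses the ripe libraries. That choice favoured a low level in ripe NSd and a high level in ripe Sd, with the PR values known. The stage tests and the interaction of LOC105040850 are therefore not independent of it. The comparison asked whether the level of LOC105040850 differed between ripe and PR fruit of the same palm. In NSd it measured 4.59, 1.33 and 0.124 RPKM in ripe fruit, against 0.0710, 0.486 and 0.378 RPKM in PR fruit. The groups overlapped, since ripe NSd replicate 3 lay below 2 of the PR libraries. The ratio of the means was 6.46, and the log2 fold change was 0.91 (SE 0.41, 95% interval 0.02 to 1.81, limma adjusted p = 0.0852), which did not pass the test. Over all loci, 7.77% were called higher and 3.07% lower in ripe NSd than in PR NSd. The value turned on single libraries: without ripe NSd replicate 3 it was 1.47 (limma adjusted p = 0.00247), past the limits of a call, and without ripe NSd replicate 1 it was 0.32 (limma adjusted p = 0.343). The log2(RPKM + 1) scale understates a change at the low NSd levels. With a pseudocount of 0.1 in place of 1 the NSd stage difference was 1.66 (limma adjusted p = 0.112).

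In the Sd palm the values were 49.3, 52.9 and 45.4 RPKM in ripe fruit, against 34.7, 32.1 and 32.7 RPKM in PR fruit. All ripe libraries lay above all PR libraries, which was so at 16.9% of the loci tested, and the ripe mean was 1.48 times the PR mean. The log2 fold change was 0.55 (SE 0.41, 95% interval -0.34 to 1.45, limma adjusted p = 0.476), and the difference did not pass the test. Among all loci 0.659% were called higher and 0.429% lower in ripe Sd. The 4 groups share 1 estimate of the spread, and the wide ripe NSd values enter it. In a fit of the Sd libraries alone the log2 fold change was the same (limma adjusted p = 0.0158) and still short of both limits of a call. An exact permutation test of 3 libraries against 3 cannot go below a two-sided p of 0.10.

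The difference between the stage changes of the palms, NSd minus Sd, was 0.36 for LOC105040850 (SE 0.58, 95% interval -0.90 to 1.63, limma adjusted p = 0.654). It did not pass the test, and it changed sign to -0.23 (limma adjusted p = 0.633) without ripe NSd replicate 1. Without ripe NSd replicate 3 it rose to 0.92 (limma adjusted p = 0.0856), and with a pseudocount of 0.1 to 1.09 (limma adjusted p = 0.486). The interval leaves room for a change in NSd that was larger or smaller than in Sd. This interaction is also the difference between the palm differences at the 2 stages, and 13.3% of all loci were called for it.

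LOC105059258, the other bark storage protein A locus, was a low transcript in every group. It measured 1.08, 1.22 and 1.20 RPKM in ripe NSd, against 1.09, 1.27 and 0.967 RPKM in ripe Sd. The ripe palms overlapped, with a log2 fold change of 0.04 (SE 0.13, 95% interval -0.25 to 0.33, limma adjusted p = 0.878). The 3 ripe NSd libraries in which LOC105040850 spread over 36.9-fold were thus within 1.12-fold of each other at LOC105059258. In PR fruit it measured 0.330, 0.459 and 0.566 RPKM in NSd, against 1.00, 0.895 and 1.29 RPKM in Sd. The PR palms did not overlap, as at 51.5% of the loci tested with NSd lower. The log2 fold change was -0.51 (SE 0.13, limma adjusted p = 0.00732), which met the limit on p but not the limit on size.

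The same PR NSd libraries set the stage comparison of LOC105059258. In NSd the mean was 1.17 ± 0.0744 RPKM in ripe fruit and 0.451 ± 0.118 RPKM in PR fruit (SD, n = 3 each). These groups did not overlap, as at 44.6% of the loci tested, and the log2 fold change of 0.58 (SE 0.13, limma adjusted p = 0.00402) fell short of the limit on size. In Sd the means were 1.11 ± 0.154 RPKM in ripe fruit and 1.06 ± 0.204 RPKM in PR fruit (SD, n = 3 each), a log2 fold change of 0.04 (95% interval -0.25 to 0.32, limma adjusted p = 0.911). The interaction was 0.55 (SE 0.19, limma adjusted p = 0.0398) and was not called. The median of all loci tested was itself shifted in these contrasts, by 0.31 between the NSd stages and by -0.35 between the PR palms. After rescaling the libraries to a common median ratio, the NSd stage difference of LOC105059258 was 0.45 (limma adjusted p = 0.0159) and its PR palm difference -0.36 (limma adjusted p = 0.0413). The fold changes of this locus are on the log2(RPKM + 1) scale, which understates them at its level. With a pseudocount of 0.1 they were 1.22 (limma adjusted p = 0.00266) and -1.09 (limma adjusted p = 0.00448), past the limits of a call.

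**Figure D3:**
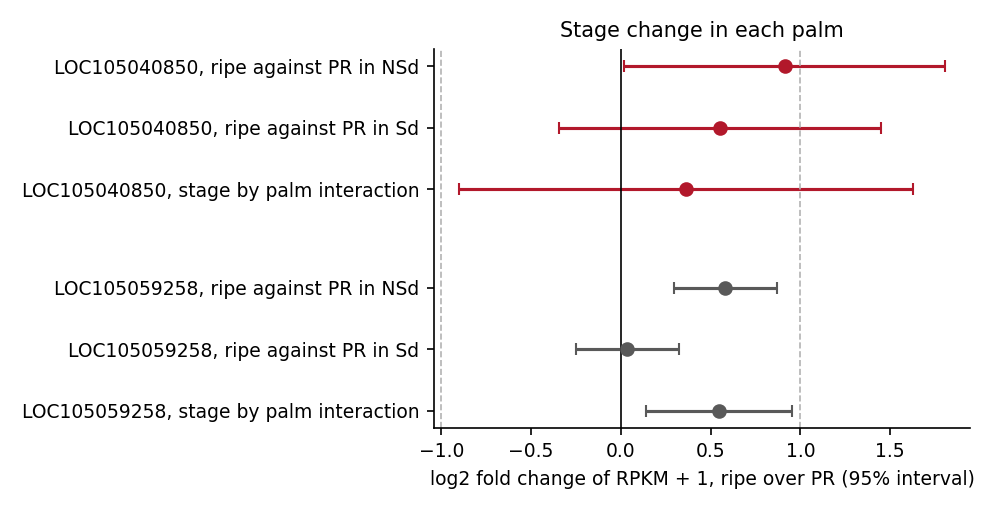
Log2 fold change of RPKM + 1, ripe over PR, in each palm, and the difference between the palms (NSd minus Sd), for LOC105040850 (upper rows) and LOC105059258 (lower rows), with 95% intervals; dashed lines mark -1 and 1. The intervals of LOC105040850 (SE 0.41 in each palm) are wider than those of LOC105059258 (SE 0.13), and all 6 points lie between 0 and 1.

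In level, the groups of LOC105040850 ran in the order ripe Sd, PR Sd, ripe NSd and PR NSd. Of the neighbours in that order, ripe NSd and PR NSd overlapped and did not differ beyond their spread, and ripe Sd and PR Sd were separated without passing the test. Its mean over the 6 Sd libraries was 41.2 RPKM, a level reached or exceeded by 3302 loci (11.4% of all). Over the 12 libraries its profile and that of LOC105059258 had a Pearson r of 0.56 and a Spearman rho of 0.48 on log2(RPKM + 1), and an r of 0.48 after the mean of each palm was subtracted. The 12 points share the palms, the bunches and the depth of their libraries, and the coefficients are given as a description.

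The loci most like LOC105040850 were sought among the 5892 annotated loci with a group mean of at least 20 RPKM. The highest r over the 12 libraries was 0.987, for the GDSL esterase/lipase CPRD49 LOC105047100, a member of a lipid-hydrolysing enzyme family. Next were LOC105057869 (r = 0.984), a peptide methionine sulfoxide reductase B3 of the chloroplast, which repairs oxidised methionine, and LOC105045344 (r = 0.977), a glucan endo-1,3-beta-glucosidase, which cuts callose-type glucans. LOC105034479, a putative phospholipid transfer protein (r = 0.973), and LOC105049418, a probable mitochondrial ATP synthase 24 kDa subunit (r = 0.971), followed. In all, 76 loci had an r above 0.9.

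These loci were lower in NSd by far smaller ratios than LOC105040850. LOC105047100 averaged 82.0 ± 13.4 RPKM in ripe NSd and 127 ± 6.89 RPKM in ripe Sd (SD, n = 3 each). LOC105057869 averaged 5.23 ± 1.42 RPKM in ripe NSd and 24.9 ± 2.17 RPKM in ripe Sd (SD, n = 3 each). Within ripe NSd, 3 of them had their libraries in the order of LOC105040850. The 5 loci were picked for a high r over these same libraries, so the shared order and the r within palms are partly set by that choice. How many of all loci had this order was not counted. The median RPKM over all loci ran in the same order, at 3.51, 3.50 and 3.10 in ripe NSd replicates 1, 2 and 3. The part of this library-wide shift in the shared order and in the r within palms was not tested. LOC105045344 measured 1793, 1053 and 792 RPKM in ripe NSd replicates 1, 2 and 3, LOC105047100 measured 95.5, 81.8 and 68.7 RPKM, and LOC105057869 measured 6.39, 5.64 and 3.65 RPKM. With the mean of each palm subtracted, the r to LOC105040850 was 0.923 for LOC105045344, 0.865 for LOC105047100 and 0.746 for LOC105057869. It was 0.697 for LOC105049418 and 0.511 for LOC105034479.

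The lowest r was -0.932, for LOC105036351, a chloroplast inner membrane translocase subunit HP30-2. It was followed by the B-box zinc finger protein 32 LOC105050857 and the LURP-one-related 10 protein LOC105044775 (r = -0.913 each), the translation initiation factor 4B3 LOC105054397 (r = -0.906) and the 2-MMP-like metalloendoproteinase LOC105039141 (r = -0.901). In all, 5 loci had an r below -0.9. LOC105050857 averaged 38.6 ± 3.37 RPKM in ripe NSd and 2.18 ± 0.664 RPKM in ripe Sd (SD, n = 3 each). Within palms these relations were weaker. With the palm means subtracted, r turned positive for LOC105036351 (0.159) and LOC105050857 (0.244), was -0.0749 for LOC105044775, and was -0.596 and -0.565 for LOC105054397 and LOC105039141.

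**Figure D4:**
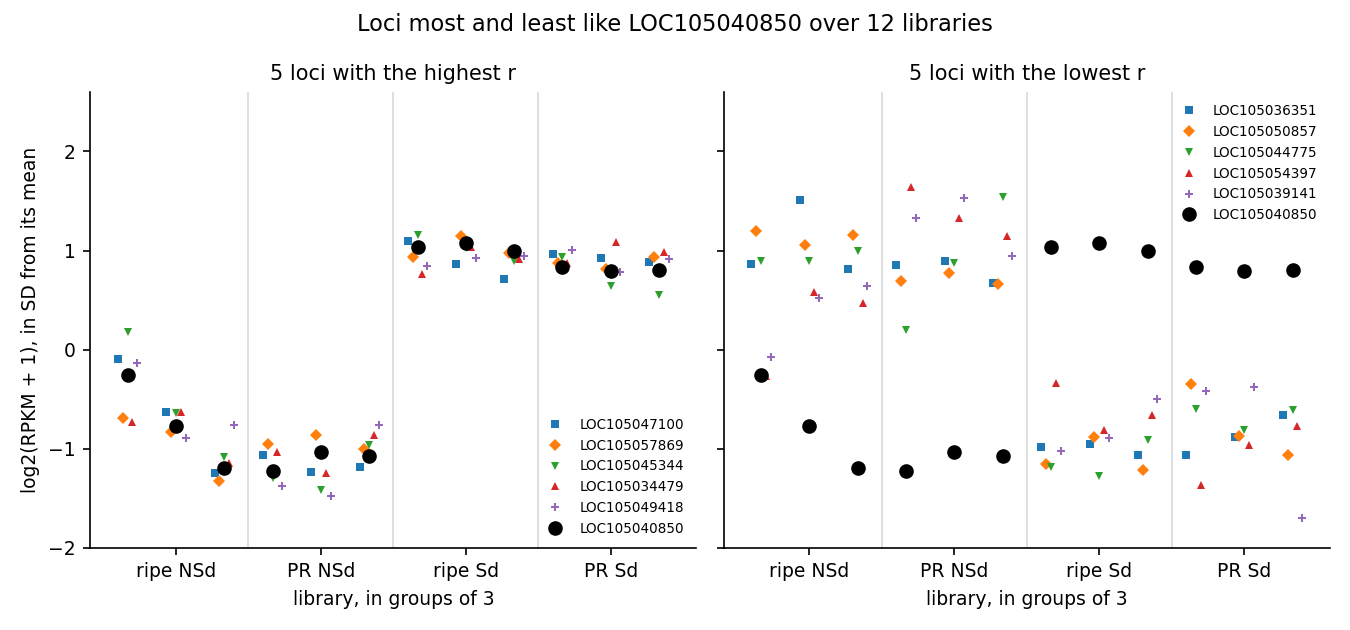
Level of LOC105040850 (black) and of the 5 loci with the highest and the 5 with the lowest Pearson r to it, as log2(RPKM + 1) in SD from each locus's own mean, in the 12 libraries. The high-r loci share its low NSd and high Sd level and, for 3 of them, its order among the ripe NSd libraries; the low-r loci run high in NSd and low in Sd.

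Genes tied to the known background of bark storage proteins were counted in lists matched on the descriptions. Of all loci tested, 0.815% were called higher and 1.63% lower in ripe NSd than in ripe Sd. Between the PR palms the shares were 3.36% and 9.53%, between the NSd stages 7.77% and 3.07%, and between the Sd stages 0.659% and 0.429%. An unadjusted limma p under 0.05 was found at 5783 of the 20495 loci tested between the ripe palms and at 4615 between the Sd stages. List counts at that limit are to be read beside these. A list count near the share of all loci is not a result about its list. The shares are from before rescaling. Rescaling moved the median of all loci from 0.31 to 0.02 between the NSd stages and from -0.35 to -0.02 between the PR palms. The shares of all loci called in each direction after rescaling are not given here, so rescaled list counts only show how the calls depend on it. Of the loci listed by name for relatives of nucleoside phosphorylases and for the methionine salvage pathway, 13 of 14 were tested. None was called between the ripe palms, with a median log2 difference of -0.05 beside -0.06 over all loci, and 1 was called lower in PR NSd, after rescaling 0. Without adjustment, 0 of the 13 had a limma p under 0.05 between the ripe palms. Between stages 1 was called higher in ripe NSd and 0 in ripe Sd, where 2 had an unadjusted limma p under 0.05. The locus called was the probable uridine nucleosidase 2 LOC105038591, which splits uridine. It entered the list by the word nucleosidase in its description, and no relation in sequence to bark storage proteins was checked. It averaged 15.2 ± 3.43 RPKM in ripe NSd and 4.13 ± 0.910 RPKM in PR NSd (SD, n = 3 each). With 0.815% of all loci called higher and 1.63% lower between the ripe palms, 0 calls among 13 loci is not a result about this list.

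The list of seed and vegetative storage proteins held 51 loci, of which 18 were tested. The names searched for also took in oleosins, patatin-like proteins, vacuolar-sorting receptors and vacuolar-processing enzymes, so not every member need be a storage protein. In ripe NSd 2 were called lower than in ripe Sd and 0 higher, after rescaling 1 and 0, with a median of -0.23 beside -0.06 over all loci. They were the patatin-like protein 3 LOC105049082, listed for its likeness in name to the patatin of potato tubers, and the basic 7S globulin LOC105057778. The patatin-like protein averaged 0.716 ± 0.147 RPKM in ripe NSd and 6.38 ± 0.574 RPKM in ripe Sd (SD, n = 3 each). The globulin averaged 0.926 ± 0.330 RPKM in ripe NSd and 2.92 ± 0.218 RPKM in ripe Sd (SD, n = 3 each). The globulin fell short of the size limit after rescaling (-0.97) and kept its call in 14 of 20 alternatives, and the patatin-like protein in 20 of 20. Between the PR palms 4 were called lower and 1 higher in NSd, after rescaling 2 and 1. Between stages 2 were called higher and 1 lower in ripe NSd, after rescaling 1 and 1, among them the oil body protein oleosin 16 kDa LOC105054330, at 30.0 ± 11.7 RPKM in ripe NSd and 2.80 ± 0.768 RPKM in PR NSd (SD, n = 3 each). In Sd 0 were called between stages by limma, and 5 had an unadjusted p under 0.05.

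Nitrogen assimilation and amino acid stores held 38 loci, of which 35 were tested. Between the ripe palms 1 was called, lower in NSd, with a median of -0.26 over the list beside -0.06 over all loci. It was an asparagine synthetase, LOC105045849, which makes a nitrogen transport amino acid, at 8.70 ± 0.548 RPKM in ripe NSd and 56.7 ± 20.6 RPKM in ripe Sd (SD, n = 3 each), a log2 fold change of -2.50 (SE 0.32, limma adjusted p = 0.00120). In PR fruit the same locus averaged 76.6 ± 31.5 RPKM in NSd and 81.7 ± 24.4 RPKM in Sd (SD, n = 3 each), unlike LOC105040850, whose difference was present at both stages. Between the NSd stages 3 loci of the list were called higher, including the nitrite reductase LOC105060899, and 3 lower. After rescaling 0 were higher, LOC105060899 included (0.94), and 3 lower. Between the PR palms 2 were called in each direction, after rescaling 2 higher and 1 lower, and between the Sd stages 0 by limma, with 5 at an unadjusted p under 0.05.

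Purine salvage was tested at 24 of 25 loci. Between the ripe palms 1 was called higher in NSd, the adenine phosphoribosyltransferase 1 LOC105043607, at 2.01 ± 0.394 RPKM in ripe NSd and 0.437 ± 0.0957 RPKM in ripe Sd (SD, n = 3 each), a call kept in 16 of 20 alternatives. In PR NSd 2 were called lower, after rescaling 0. Between the NSd stages 1 was called higher, LOC105038591 again, a uridine enzyme that this list also took by name. Between the Sd stages 1 was called lower, the adenine phosphoribosyltransferase 3 LOC105054024, a call kept in 15 of 20 alternatives. Of 25 wound and proteinase inhibitor loci 17 were tested, and the ripe palms gave 0 calls by limma, with 9 loci at an unadjusted p under 0.05. In PR fruit 1 was called higher and 2 lower in NSd, after rescaling 2 and 1. Between the NSd stages 2 were called higher, the cysteine proteinase inhibitors LOC105048889 and LOC105052443, and 0 between the Sd stages, with 6 at an unadjusted limma p under 0.05. After rescaling 1 was higher and 2 lower between the NSd stages. LOC105052443 kept its call in 7 of 19 alternatives, and its log2 fold change was 0.84 after rescaling (limma adjusted p = 0.0532) and 0.81 without ripe NSd replicate 1 (limma adjusted p = 0.0206).

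Jasmonate, the hormone that induces wound genes, was covered by 42 loci of its synthesis and of the TIFY repressors of its signalling, of which 37 were tested. In ripe NSd 6 were called lower and 0 higher than in ripe Sd, with a median of -0.42 beside -0.06 over all loci. In PR NSd 11 were called higher and 5 lower, after rescaling 15 and 2, where 3.36% of all loci were called higher and 9.53% lower before rescaling. Between the NSd stages 4 were called higher and 10 lower, after rescaling 2 and 13, and between the Sd stages 3 higher and 0 lower. The TIFY 10a repressor LOC105042036 averaged 68.5 ± 22.5 RPKM in ripe NSd and 351 ± 86.2 RPKM in ripe Sd, and the linoleate 13S-lipoxygenase 2-1 LOC105039460 averaged 5.50 ± 0.710 RPKM in ripe NSd and 16.0 ± 5.96 RPKM in ripe Sd (SD, n = 3 each). Between the Sd stages the allene oxide synthase 2 LOC105039328 and TIFY 9 LOC105051062 were called higher in ripe fruit, and the lipoxygenase 6 LOC105051386 was called higher between the NSd stages. The Sd stage call was kept in 10 of 20 alternatives for LOC105039328 and in 14 of 20 for LOC105051062. Of the 12 fits that left out a library, 8 lost the call of LOC105039328 and 4 that of LOC105051062. The ripe palm call was kept in 15 of 20 alternatives for LOC105042036 and in 17 of 20 for LOC105039460, and LOC105051386 fell short of the size limit only after rescaling (0.92). Jasmonate genes were among those the study drew attention to from these libraries, so their counts are not independent evidence of a direction. Unlike LOC105040850, TIFY 10a and TIFY 9 were called higher in PR NSd, where they averaged 315 ± 94.2 and 33.1 ± 8.60 RPKM, against 94.5 ± 56.1 and 2.21 ± 1.22 RPKM in PR Sd (SD, n = 3 each).

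Marker genes of further tissues in the dissected fruit base were summed per library beside LOC105040850. Phloem markers, 21 loci, summed to 598 to 746 RPKM in ripe NSd and 880 to 1070 RPKM in ripe Sd, and to 1210 to 2046 RPKM in PR NSd and 928 to 1283 RPKM in PR Sd. Markers of lignified walls, 43 loci, summed to 661 to 785 RPKM in ripe NSd and 817 to 955 RPKM in ripe Sd, and to 419 to 509 RPKM in PR NSd and 813 to 859 RPKM in PR Sd. The wall sums were lower in NSd at both stages without overlap, by a far smaller ratio than LOC105040850. A sum is carried by its most abundant loci, and single wall loci did not all go this way. Between the ripe palms 0 of the 15 wall loci tested were called, with a median log2 difference of 0.13 beside -0.06 over all loci. Between the PR palms 1 was called higher and 2 lower in NSd, with a median of -0.44 beside -0.35. Photosynthesis genes summed to 3543 to 4601 RPKM in ripe NSd and 2604 to 3954 RPKM in ripe Sd, and to 540 to 584 RPKM in PR NSd and 4031 to 4415 RPKM in PR Sd. Oil mesocarp genes, 64 loci, summed to 3284 to 4574 RPKM in ripe NSd and 1965 to 3115 RPKM in ripe Sd, and to 2719 to 2843 RPKM in PR NSd and 3418 to 3499 RPKM in PR Sd. Seed genes, 25 loci, summed to 6698 to 8005 RPKM in ripe NSd and 5409 to 7270 RPKM in ripe Sd, and to 8809 to 10404 RPKM in PR NSd and 6760 to 9571 RPKM in PR Sd. The part of tissue make-up in the palm difference of LOC105040850 was not tested.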

How the data were processed

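AZ RNA of 2 *E. oleifera* palms at 2 stages was sequenced as 12 libraries. The authors processed reads with bcl2fastq 2.20.0.422, aligned them with BWA-MEM to the *E. guineensis* transcriptome, counted with SAMtools, merged transcripts of a locus and deposited RPKM, 1 table per library. FastQC, DESeq, DESeq2 and HOMER are also named in the submitters' processing notes. Library totals and reads were recovered from the steps between RPKM values (tolerance 0.001 reads). No single length gave whole reads for LOC105059258. For the difference tests, log2(RPKM + 1) was fitted with limma 3.58.1 (R 4.3.3, trend, 12 libraries, 1 mean per group), a replacement for the authors' count test because the tables hold RPKM. Testing covered the 20495 loci that reached 1 RPKM in some library, with Benjamini-Hochberg adjustment. The pipeline was tested on simulated data. Tables used Python 3.11.15, numpy 2.4.6, pandas 2.3.3 and scipy 1.17.1, and plots matplotlib 3.10.9.

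Palm codes in the labels gave the groups, and the study's text gave which palm sheds. The members and lists were chosen with earlier results of these data known. Named loci were both bark storage protein loci, the 5 highest and 5 lowest r among annotated loci with a group mean of at least 20 RPKM, and up to 2 called members per list in the ripe palm contrast and in each stage contrast, taken by smallest p. Neighbouring genes and sequences were not analysed here. Alternatives were a pseudocount of 0.1, no filter, only the compared groups, rescaled RPKM, rRNA loci left out of the totals, no trend, robust moderation, an adjusted p under 0.05 without a size limit, a likeness limit of 10 RPKM, Spearman rho and leaving out each library. A fit without PR NSd and the subtraction of palm means were chosen after seeing the data.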

Additional observations from a re-analysis of the deposited data

Results flagged for a closer look

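Neither bark storage protein A locus showed a stage change that was called as different between the palms. Among the listed loci named in the report, 10 did, by the limma interaction (the log2 change from PR to ripe fruit in NSd minus that in Sd), which 13.3% of all loci also passed. The difference was positive for the uridine nucleosidase LOC105038591 (1.28), oleosin LOC105054330 (5.07), the lipoxygenases LOC105039460 (2.70) and LOC105051386 (1.11), the cysteine proteinase inhibitor LOC105048889 (1.74) and the adenine phosphoribosyltransferase LOC105054024 (1.49). It was negative for the basic 7S globulin LOC105057778 (-2.38), the asparagine synthetase LOC105045849 (-2.37), TIFY 9 LOC105051062 (-4.90) and TIFY 10a LOC105042036 (-4.20). Each of these values contains the PR NSd libraries, which stood apart from the others, and their part in it was not tested.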

How the results depend on the processing

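The ripe palm difference of LOC105040850 ran from -5.42 to -3.79 over 20 alternatives. Its PR palm difference was -6.52 with a pseudocount of 0.1 and otherwise between -4.81 and -4.55. The NSd stage difference of LOC105040850 ran from 0.32 to 1.47 as single libraries were left out, and passed the call only without ripe NSd replicate 3. With a pseudocount of 0.1, LOC105059258 was called between the NSd stages (1.22) and between the PR palms (-1.09), where it was not with 1. With the palm means subtracted, the r to LOC105040850 reversed for LOC105036351 (0.159) and LOC105050857 (0.244). At a likeness limit of 10 RPKM, 3 of the 5 highest and 5 of the 5 lowest loci were the same. As libraries were left out, the count of loci called ran from 133 to 611 between the ripe palms (501 with all libraries) and from 42 to 410 between the Sd stages (223 with all libraries). The cause of these shifts was not tested. No paired analysis was possible because replicates were numbered by accession order and the labels pair no libraries. Few reads behind the NSd values limit their precision.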
